A study of Drosophila melanogaster with 36 samples.

Results

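Among 16637 transcripts measured in adult Drosophila melanogaster, 200 were singled out as the brightest of those with nearly equal intensity in males and females. They were chosen on the log2 of the deposited intensities: the median of the 18 male arrays minus the median of the 18 female arrays had to lie between -0.5 and 0.5, which 4427 transcripts (26.6%) met, and of these the 200 with the highest mean over all 36 arrays were taken. The sex difference and the level of these transcripts are therefore given as descriptions only. Differences between strains within a sex, and the spread between arrays, were not used in the choice. Over the 18 arrays of a sex, 196 members in males and 200 in females stayed within a 2-fold range, as did 63.4% and 92.8% of all transcripts. The sets most like the members came closer to them. Of the 86 equally bright transcripts outside the band 93% and 91.9% stayed within it, and of the next 200 in the band 89% and 97%. Equal means of the 6 strains were rejected for 2 members in females (1%, and 10.1% of all transcripts) and for 0 in males, where only 0.0781% of all transcripts were called and the count of members says little. The name "equal in both sexes" depends on the scaling. After quantile normalization over all arrays 197 of the 200 stayed in the band, and after scale normalization, the between-array method named in the study's methods, 24 did and all 200 were lower in males.

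Each array measured RNA of 50 whole virgin flies of one sex, frozen 5 to 7 days after emergence, and each of the 12 combinations of sex and strain had 3 arrays (replicates A, B and C). In REC both engineered transposable elements sit on one second chromosome that was not yet exposed to the recombinase; INV1 and INV2 carry the induced inversion that disrupts a long conserved block of genes; in SIM1 the same heat-shock treatment did not invert the chromosome; and in REV1 and REV2 the inversion was turned back. Eyes are red in REC and both INV strains and white in SIM1 and both REV strains, every strain is a single homozygous line, and all descend from carriers of the same 2 elements, so that history, inserts and eye colour differ between strains together with the region. In RNA from whole flies, fewer cells of a type and less RNA per cell cannot be told apart.

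Transcripts that are abundant in both sexes of the fly commonly come from genes that most cells use, such as those of the ribosome, of energy metabolism and of the cytoskeleton, or from large tissues that both sexes share, such as muscle and fat body. Large differences between whole males and females come to a great extent from the gonads and the glands attached to them. Which of these genes the members are was not analysed here: the rows of the deposited values carry FlyBase transcript identifiers but no gene names, and the gene table at hand held 0 of the 200 members (44 of all 16637 identifiers). No sequence could therefore be assigned to a member, the lists of ribosomal, metabolic, muscle, eye and sex-specific genes could not be applied, and the whole-fly origin was not checked against markers. Intensities of different transcripts come from different probes, and the order by intensity is not an order of RNA amounts.

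The members had mean log2 intensities between 13.89 and 15.68, with a median of 14.24, whereas the median over all transcripts was 10.67. On the linear scale these are 15159, 52522 and 19305. Both the dimmest member and the brightest transcript of the band outside the 200 had a mean of 13.89. At the lower edge of the band the 2 outermost members had differences between the sexes of -0.49 and -0.48, and the next 2 bright transcripts outside it had -0.51 and -0.51. At the upper edge the values were 0.50 and 0.49 inside and 0.51 and 0.52 outside. As bright as the members but outside the band were 86 transcripts, 41 of them higher in males and 45 lower, so that the members made up 69.9% of the 286 transcripts at this level. The median difference of the members was -0.09, with 135 lower and 65 higher in males, and 133 of the 200 differed by less than 0.25.

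**Figure D1:**
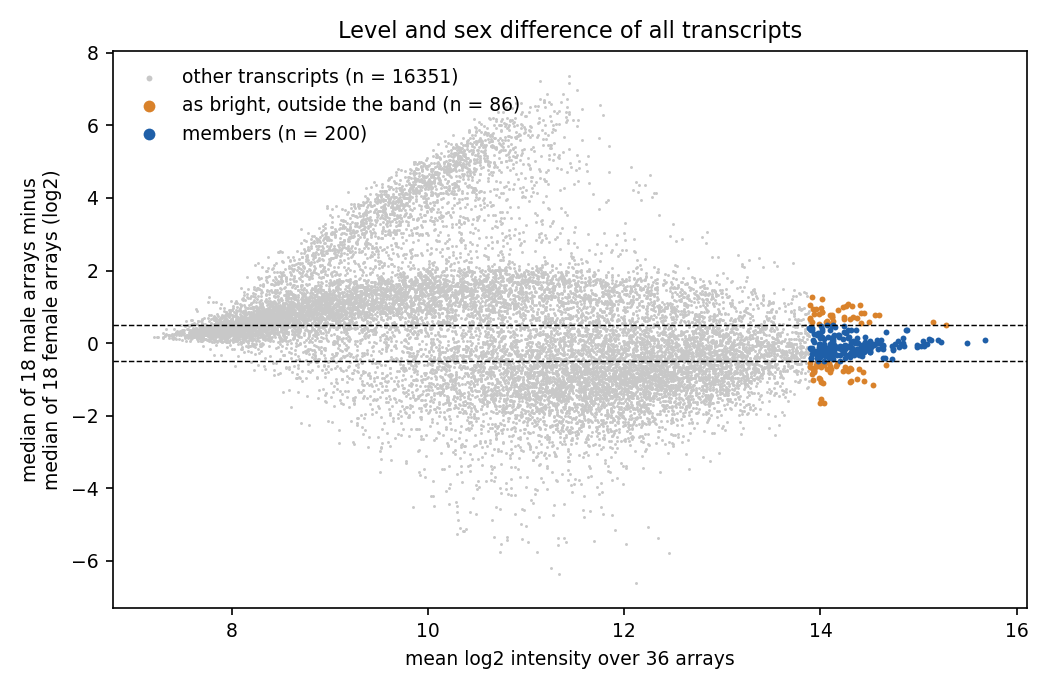
Each point is 1 of the 16637 transcripts, by its mean log2 intensity over the 36 arrays (horizontal axis) and the median of the male arrays minus that of the female arrays on the log2 scale (vertical axis); dashed lines mark -0.5 and 0.5. The 200 members lie at the right end of the band, and 86 transcripts as bright lie outside it.

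The 2 brightest members had almost no spread. FBtr0112413 held rank 1 on all 36 arrays, with a log2 intensity of 15.73 on each of the 18 male and 15.63 on each of the 18 female arrays. FBtr0080306 held rank 2 on all female arrays, with 15.50 on each, and ranks 2 to 4 on the male arrays, where the lowest, median and highest values were 15.44, 15.49 and 15.56. Such identity follows from the deposited values themselves, because the sorted values were nearly the same on all arrays of a sex: at each of the 300 highest ranks they differed by at most 0.0586% in males and 0.159% in females. The 3 transcripts next in order, FBtr0114123, FBtr0076398 and FBtr0076400, moved between ranks 2 and 75 in males and 3 and 23 in females. FBtr0114123 ranged from 14.62 to 15.44 in males (median 15.27) and from 15.06 to 15.36 in females (median 15.25).

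Members with a fixed rank were exceptions. The worst rank that any member took on any array was 2629 of 16637, for FBtr0290322 in a male array, whereas 102 members stayed among the 500 brightest transcripts on all 36 arrays and 185 among the 1000 brightest. After the 2 brightest, the smallest SD over the 36 arrays was that of FBtr0081931 (0.0624), whose values lay between 14.26 and 14.50 in males and between 14.37 and 14.58 in females. FBtr0070915 (SD 0.066) and FBtr0086150 (SD 0.0759) followed. At the lower limit of brightness, FBtr0087474, FBtr0080440 and FBtr0079806 had SDs of 0.111, 0.233 and 0.272. The largest SDs belonged to FBtr0290322 (0.359), FBtr0088123 (0.349), FBtr0077041 (0.336), FBtr0079196 (0.331) and FBtr0079197 (0.323), all of which had differences between the sexes of 0.40 or more in size, which enter an SD over all arrays. In FBtr0290322, FBtr0079196 and FBtr0079197 the male arrays SIM1 C, REC B, INV1 A and INV1 B, described below as deviating alike, held the lowest male values and enter it too. In FBtr0290322 these were 12.70, 13.49, 13.25 and 12.96. This was not so in FBtr0088123 and FBtr0077041.

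Between arrays of one strain and sex, the members varied less than transcripts at large. The SD within strains, pooled over the 6 strains, had a median of 0.123 over the members in males and 0.0889 in females, whereas over all transcripts it was 0.206 and 0.109. The 86 equally bright transcripts outside the band had medians of 0.143 and 0.0915. Over all 36 arrays, 182 members (91%), 15.1% of those 86 and 17.8% of all transcripts stayed within a 2-fold range, a count that the band itself largely sets, because this range contains the sex difference. Spread was larger in males for 159 members (79.5%), and for 88.3% of all transcripts. Among the members it was lower for brighter transcripts, mainly in males: the 50 brightest had a median SD within strains of 0.107 and the 50 dimmest of 0.168, against 0.0853 and 0.0932 in females. Over the next 4 sets of 200 transcripts of the band, in order of brightness, the median was 0.155, 0.161, 0.156 and 0.173 in males and 0.0891, 0.0976, 0.101 and 0.103 in females. These medians are descriptions, and no test was made of a score over the members.

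**Figure D2:**
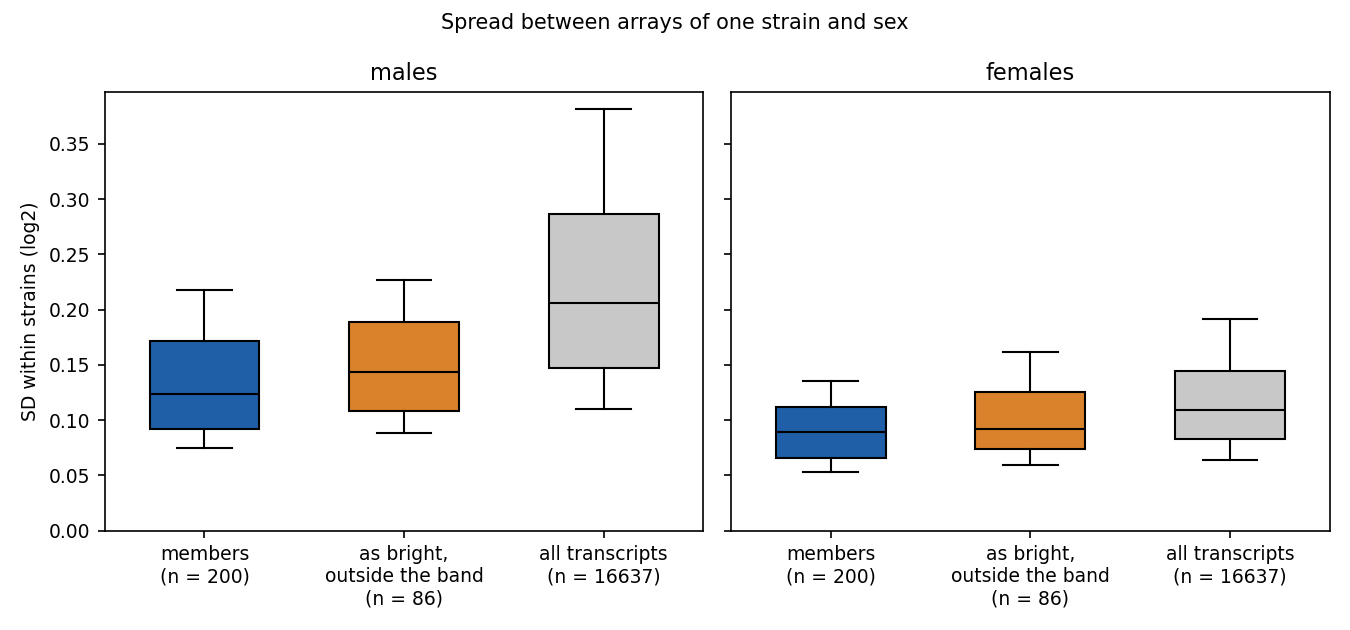
Box plots of the SD between arrays of one strain and sex (log2, pooled over 6 strains) in males (left) and females (right), for the members, for the 86 transcripts as bright outside the band, and for all transcripts. Boxes span the quartiles, lines are medians, and whiskers run from the 10th to the 90th percentile. The members have the lowest median in both sexes.

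In males a few arrays carried much of that spread. Over all transcripts, 4 male arrays (SIM1 C, REC B, and A and B of INV1) moved together, with correlations between 0.696 and 0.898 of their deviations from the male mean, and over the members the same 6 pairs had correlations between 0.19 and 0.857. The mean of these 4 arrays differed from that of the other 14 male arrays by more than 0.25 in 43 members (21.5%), in 40.7% of the 86 equally bright transcripts outside the band and in 58.8% of all transcripts. Of the 43, 9 exceeded 0.5. The lowest or the highest male value of 155 members was on one of the 4. Together these arrays held 42.5% of the members' 400 lowest and highest male values, where an even spread over arrays would give 22.2%. The 4 were picked because they deviated alike, and no such share is given over all transcripts. SIM1 C alone held 34 lowest and 38 highest values. INV1 C, which is not among the 4, held 35 lowest and 7 highest. Without the 4 arrays the median SD within strains of the members in males was 0.0903, close to the female value. INV1, the strain with the largest SD in males, then keeps only replicate C and adds nothing to this pooled SD. The fall was not particular to the members. Over all transcripts it went from 0.206 to 0.128, over the 86 equally bright ones outside the band from 0.143 to 0.0993, and over the next 200 in the band from 0.155 to 0.0958. By strain, the members' median SD in males was 0.158 in INV1, 0.136 in SIM1 and 0.104 in REC, the strains that hold these arrays, and between 0.0661 and 0.0939 in INV2, REV1 and REV2. In females it lay between 0.045 in REC and 0.0906 in REV2. What set these arrays apart was not tested.

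**Figure D3:**
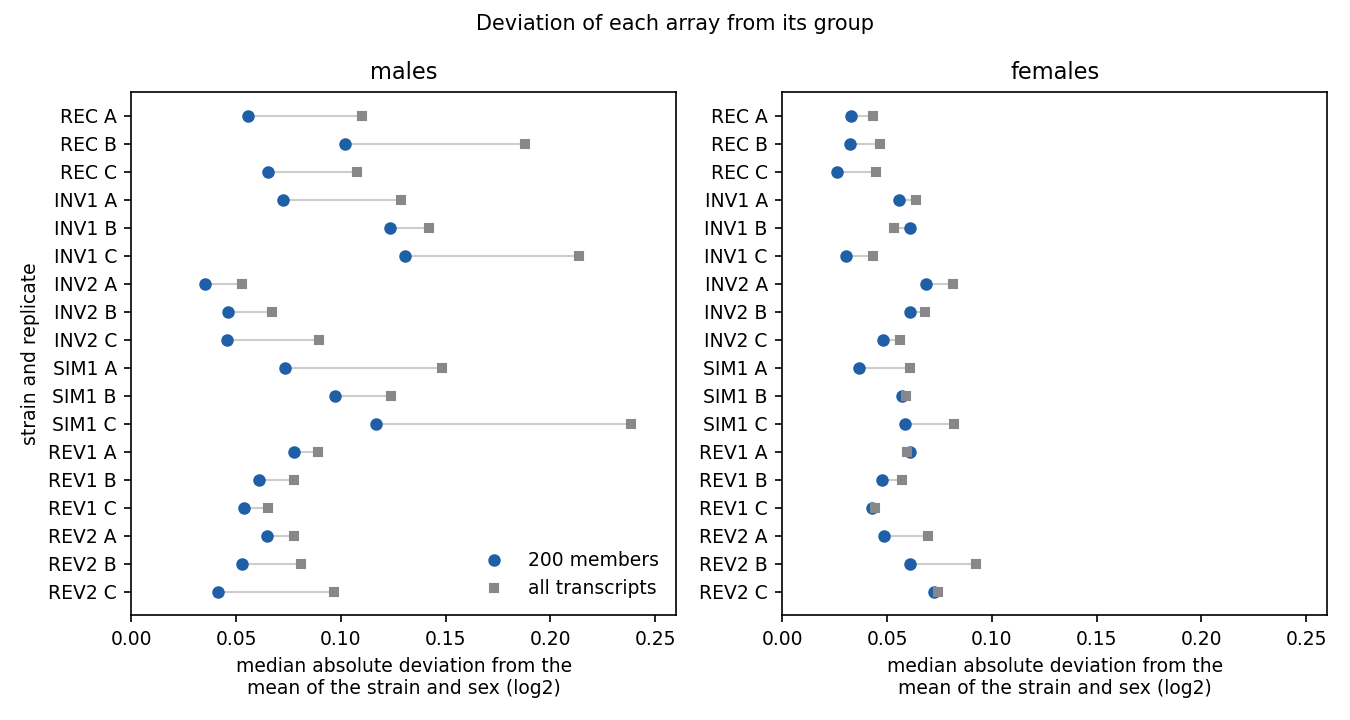
For each array, the median absolute deviation from the mean of its strain and sex (log2, horizontal axis), over the 200 members (circles) and over all transcripts (squares), in males (left) and females (right). INV1 C (0.13), INV1 B (0.124), SIM1 C (0.117) and REC B (0.102) are the male arrays with the largest deviations over the members, and no female array exceeds 0.0722. The mean of INV1 males includes A (0.0724) and B, which both deviated alike with SIM1 C and REC B. The value of INV1 C is therefore its distance from a mean drawn toward these arrays.

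FBtr0082626, chosen after its values were seen as the member with the widest range of strain means in males, shows how these arrays acted on a single member. Its log2 intensities in replicates A, B and C were 13.96, 14.71 and 13.82 in REC males, 14.86, 14.66 and 13.98 in INV1, and 13.51, 13.65 and 13.58 in INV2. They were 13.74, 14.04 and 14.64 in SIM1, 13.94, 13.98 and 13.96 in REV1, and 13.83, 13.94 and 13.74 in REV2. The 4 values above 14.5 are those of the 4 arrays named above. INV2 males were lower than INV1 males by 0.92 on the log2 scale, with a standard error of 0.251 (limma, Benjamini-Hochberg adjusted p = 0.0555), which did not pass the threshold. In females all values of this transcript lay between 13.75 and 14.13.

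Differences between strains were tested within each sex by a moderated F-test over all transcripts (limma), with calls made where the Benjamini-Hochberg adjusted p was under 0.01. In males 0 of 200 members were called, where 0.0781% of all transcripts were, and 11 members (5.5%) had an unadjusted p under 0.05, where 19.6% of all had. In females 2 members (1%) were called, where 10.1% of all transcripts were, and 35 members (17.5%) had an unadjusted p under 0.05, where 39% of all had. The one-way comparison of the methods, which does not share the spread between transcripts, called 0 members in males and 3 (1.5%) in females, where it called 0.0601% and 3.97% of all transcripts. Of the 86 equally bright transcripts outside the band, 6 were called in females, and of the next 4 sets of 200 in the band 13, 8, 6 and 11. The female share differed between lists: of the 200 transcripts that the same rule takes after scale normalization, of which 24 are shared and which had a median level of 13.74, 30 (15%) were called. Single arrays also moved the count, which was 5 when SIM1 C was left out (12.8% of all transcripts), 4 when INV2 A or INV2 C was (9.15% and 9.2% of all) and 1 when REC B was (6.03% of all). In males it was 0 without any one array, but at most 0.114% of all transcripts were called in any of these fits, so that the 0 says little of the members.

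The scatter of the strain means was set against the replicate error. In males the SD of the 6 strain means had a median of 0.0806, and the standard error of a strain mean a median of 0.0712. In females these were 0.0635 and 0.0513. The ratio of both for each transcript had a median of 1.06 over the members in males and 1.29 in females, against 1.26 and 1.5 over all transcripts. It exceeded 2 in 8 members in males (4%, and 9.8% of all) and in 32 in females (16%, and 26.3% of all). The male ratio includes the 4 arrays that moved together, and it is not given without them. Without them the SD within strains of the members had a median of 0.0903 and the SD of the strain means one of 0.0852. The INV1 mean then rests on replicate C alone, and INV1 does not enter the SD within strains. That SD is the spread of single arrays and not the standard error of a strain mean, so these values do not give the ratio. The range from the lowest to the highest strain mean was under 0.25 for 133 members in males and 161 in females (66.5% and 80.5%), as it was for 22.7% and 49.9% of all transcripts. It exceeded 0.5 in 6 members in males and 3 in females (3% and 1.5%), as it did in 34.2% and 12.8% of all transcripts. In females REC had the highest mean of the 6 strains in 57 members, and INV2 had the lowest in 55 and REV2 in 53. In males INV1 had the highest mean in 49 and INV2 the lowest in 63. Replicates A and B of INV1 males are among the 4 arrays that moved together, on which 135 members were higher than on the other male arrays. No such counts of highest and lowest strains are given over all transcripts, so they are not read as a trait of the members.

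FBtr0084868 had the lowest p of the members in the female F-test. Its log2 intensities in replicates A, B and C were 14.33, 14.33 and 14.26 in REC females, 14.17, 14.19 and 14.01 in INV1, and 13.86, 14.06 and 14.02 in INV2. SIM1 had 14.34, 14.38 and 14.48, REV1 14.35, 14.30 and 14.26, and REV2 13.96, 14.06 and 13.88. REC, SIM1 and REV1 lay above all arrays of the other 3 strains, INV1, INV2 and REV2 (limma F-test, adjusted p = 0.000968), and it stayed past the threshold under all 26 other settings run for it (adjusted p from 0.000253 to 0.00345). Strain means of this transcript in males lay between 13.72 and 13.89 (limma F-test, adjusted p = 0.92).

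FBtr0076119 was the other member called. In females it had 14.26, 14.31 and 14.30 in REC, 14.18, 14.35 and 14.15 in INV1, 13.81, 13.93 and 13.60 in INV2, 14.20, 14.15 and 14.16 in SIM1, 14.17, 13.92 and 14.09 in REV1, and 13.99, 13.99 and 13.80 in REV2 (limma F-test, adjusted p = 0.00337). The 3 arrays of INV2 lay below all arrays of REC, INV1 and SIM1. It stayed past the threshold under 24 of 26 settings (adjusted p from 0.000498 to 0.0136), the exceptions being the one-way comparison of the methods (adjusted p = 0.0136) and the fit without replicate B of REC (adjusted p = 0.0102). In males its strain means lay between 14.39 and 14.66, with REV1 highest. Of the members it also came closest to a call in the test for a sex difference that varies over strains (limma interaction F-test, adjusted p = 0.0108). Its means in males and females were 14.40 and 14.29 in REC, and 14.55 and 13.78 in INV2.

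**Figure D4:**
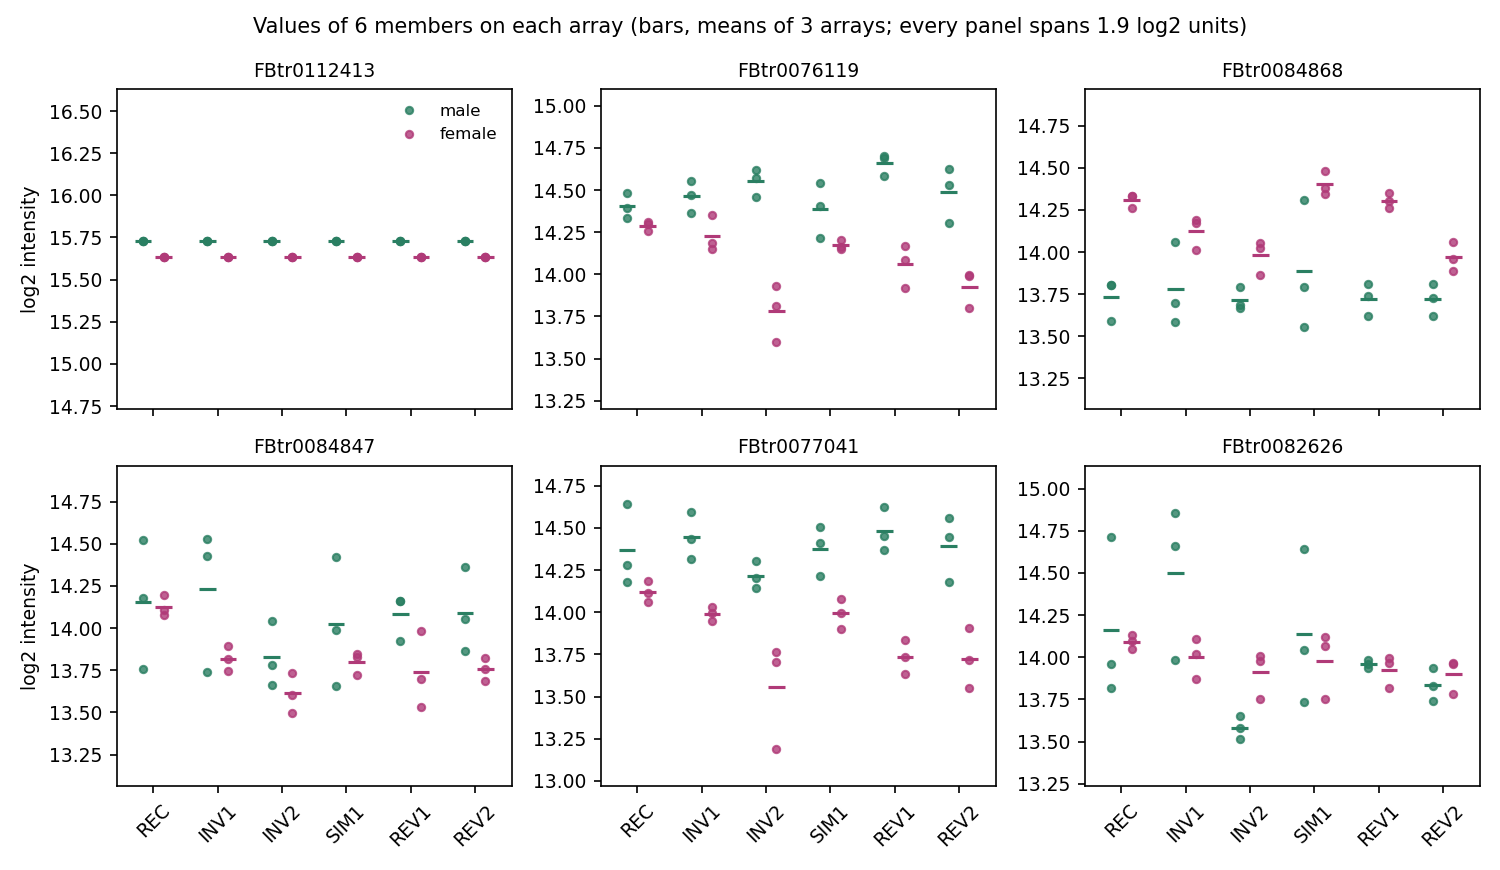
Log2 intensity (vertical axis) of 6 members on each array by strain, in males (green) and females (magenta); points are arrays, bars are means of 3 arrays, and every panel spans the same 1.9 log2 units. FBtr0112413 has one value per sex, FBtr0084868 and FBtr0076119 are the 2 members called in females, and the 4 high male points of FBtr0082626 are those of the arrays that deviated alike.

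The 6 planned contrasts gave calls in 1 member. For the mean of both INV strains minus REC, the comparison of disrupted and intact region among flies with red eyes, 1 member was called in females (0.5%, where 1.76% of all transcripts were) and 0 in males (0.012% of all), with 28 and 8 members (14% and 4%) at an unadjusted p under 0.05, as were 26.2% and 4.8% of all transcripts. Between REC and the white-eyed strains, 1 member was called in females (3.69% of all transcripts) and 0 in males (0.0421% of all), with 23 and 4 (11.5% and 2%) at an unadjusted p under 0.05, as were 28.6% and 9.64% of all transcripts. Both calls were FBtr0084847, and both contrasts share the REC arrays. In females it had 14.19, 14.11 and 14.08 in REC, above every other female array. INV1 had 13.82, 13.75 and 13.89, INV2 13.61, 13.74 and 13.50, SIM1 13.85, 13.72 and 13.83, REV1 13.70, 13.53 and 13.99, and REV2 13.76, 13.82 and 13.69. It was lower in INV than in REC by -0.41 (standard error 0.0813, limma adjusted p = 0.00769) and higher in REC than in white-eyed females by 0.36 (standard error 0.0766, limma adjusted p = 0.00707). Neither call was firm: without any one of the REC arrays A, B and C the adjusted p was 0.0531, 0.0419 and 0.0231 for the first and 0.0633, 0.0406 and 0.0202 for the second, and with the replicate letter as a block it was 0.0114 and 0.0111. The first was also lost without any one array of INV1, without replicate A or C of INV2 and without replicate A of SIM1 or REV1, and the second without replicate C of INV1, B of SIM1, A of REV1, or A or C of REV2, with adjusted p between 0.01002 and 0.0181. Over all 26 settings the adjusted p ran from 0.00148 to 0.0925 for the first and from 0.00125 to 0.0793 for the second. In males the 18 values of this transcript lay between 13.66 and 14.53, and the differences were -0.12 and 0.09 (limma adjusted p = 0.97 and 0.872). The highest male values were on INV1 A, REC B, INV1 B and SIM1 C, the arrays that deviated alike, and each difference includes some of these arrays.

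In the other contrasts limma called 0 members. It called 4.4% of all transcripts in females and 0.0541% in males between INV and white-eyed strains, 2.89% and 0.012% between SIM1 and the REV strains, 0.162% and 0.018% between INV1 and INV2, and 0.00601% and 0% between REV1 and REV2. At an unadjusted p under 0.05 the members are compared at the same threshold. Between INV and white-eyed strains 20 members in females (10%, and 26.5% of all transcripts) and 4 in males (2%, and 4.21% of all) had such a p. Between SIM1 and the REV strains 38 (19%, and 26% of all) and 1 (0.5%, and 6.68% of all) had. Between INV1 and INV2 24 (12%, and 17.9% of all) and 25 (12.5%, and 31.8% of all) had. Between REV1 and REV2 3 members had one in males (1.5%, and 9.39% of all), and in females 20 (10%), a share close to that of all transcripts (9.94%). For SIM1 and the REV strains in females, 1 member was called without replicate A of INV2 (3.32% of all transcripts) and 2 without replicate B of REV2 (5.03% of all). The one-way comparison of the methods called 0 members in each of the 6 contrasts in both sexes, but it called at most 0.721% of all transcripts in any of them, so that the 0 says little of the members. The members' differences were small. In females 0 of 200 exceeded 0.5 on the log2 scale in any of the 6 contrasts, whose standard errors had medians over the members of 0.0486 to 0.0754, and between 0.433% and 2.51% of all transcripts did. In males 4 members exceeded 0.5 between INV1 and INV2 (22.3% of all transcripts) and 0 in the other 5 contrasts (0.463% to 5.43% of all), with median standard errors of 0.0731 to 0.113. The widest difference of a member in females was -0.45 (INV2 minus INV1, FBtr0076119).

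The difference between the sexes was followed over the strains, as a description. Its median over the members lay between -0.11 in REC and -0.06 in REV2, and in each strain between 119 and 132 members were lower in males. Although the band was set on medians over all strains, 167 members stayed between -0.5 and 0.5 in all 6 strains and 71 between -0.25 and 0.25, and no member exceeded 1 in any strain. In 118 members the sign was the same in all 6 strains, lower in males in 78 and higher in 40. The 18 male and 18 female arrays of 13 members did not overlap at all, though the medians differed by less than 0.5. No such count is given over all transcripts, so the 13 are not read as a trait of the members. The range of the difference over the 6 strains had a median of 0.27, and of 0.50 over all transcripts. Whether the sex difference varied over strains was tested in one limma fit of all arrays, since the choice of members did not use it: 0 members were called, where 1.5% of all transcripts were, and 18 (9%) had an unadjusted p under 0.05, where 28% of all had. The fit without the 4 male arrays that deviated alike leaves only replicate C of INV1 males, and its calls are not given. Without male replicate C of INV1 3 members (1.5%) and 6.31% of all transcripts were called, and without female replicate B of INV2 2 members and 1.56% of all. In each of 4 other fits 1 member (0.5%) was called: without male replicate B or C of SIM1 (1.62% and 3.11% of all), male replicate C of REV2 (0.811% of all) or female replicate B of REV2 (3.7% of all).

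Equality between the sexes depended on how the sexes were scaled. The median intensity was 1979 on the male arrays and 1339 on the female arrays, although the brightest value differed little, at 54214 and 50883. In the values as deposited the members' median was 14.20 in males and 14.29 in females. Scale normalization, applied here to the deposited values over both sexes, brings the medians of all arrays to one value by a factor on the log2 scale, which moves bright transcripts most. After it the members' medians were 13.83 and 14.67, the difference between the sexes had a median of -0.85 with a range from -1.24 to -0.25, all 200 were lower in males, and 24 remained within the band. The median difference over all transcripts changed from 0.37 to -0.12. After quantile normalization over all 36 arrays, which gives every array one distribution, 197 members remained within the band, 143 were lower and 56 higher in males, and the median was -0.13. By percentile rank on each array, which uses no scale, the members' median was 98.5 in males and 98.9 in females. No direction is therefore given for the members as a group beyond these values.

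**Figure D5:**
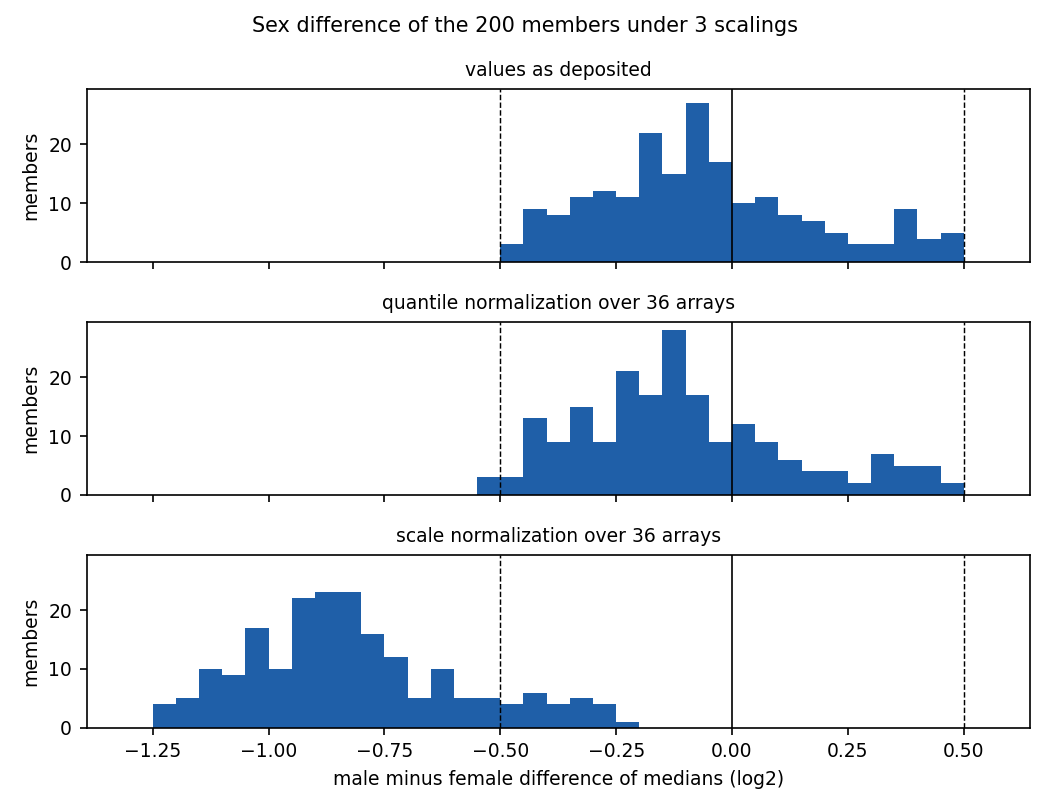
Histograms of the male minus female difference of medians (log2, horizontal axis; number of members, vertical axis) of the 200 members in the values as deposited, after quantile normalization and after scale normalization over 36 arrays; dashed lines mark the band. All 200 lie within the band in the first panel by choice, 197 in the second and 24 in the third.

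Some members varied together from array to array. Among their identifiers were 18 pairs with consecutive numbers, made up of 32 members, such as FBtr0079196 and FBtr0079197. Their deviations from the means of strain and sex over the 36 arrays had a median correlation of 0.734 between partners, from -0.444 to 0.939, and in 12 pairs it exceeded 0.5, as it did in 13.2% of all 19701 pairs of members that vary within groups. The median over all pairs was 0.0253. FBtr0079196 had 13.46, 13.79 and 13.98 in INV1 males (replicates A, B and C) and 14.07, 14.06 and 14.05 in INV2 males. FBtr0079197 had 13.46, 13.64 and 13.96, and 14.12, 13.97 and 14.05. In both the low values among these were those of replicates A and B of INV1. Male REC B and SIM1 C were low too, at 13.493 and 13.485 in FBtr0079196 and at 13.443 and 13.323 in FBtr0079197. These are the 4 male arrays that deviated alike. All arrays enter these correlations, including those that deviated alike, and whether such pairs share probes is not given in the sources used here.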

How the data were processed

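Whole-fly RNA was hybridized in one colour to NimbleGen arrays. By the methods, the authors log-transformed probe intensities, took the median per transcript and applied limma's scale method between arrays; background correction is not given in the sources used here. The deposited values are linear fluorescence intensities, with 16637 transcripts on 36 arrays and 0 missing values. At each of the 300 highest ranks they differed between arrays of a sex by at most 0.0586% in males and 0.159% in females. The methods name no step that makes sorted values nearly equal, so the processing behind the deposited values is not fully known. Sex, strain and replicate letter came from the labels, and intensities were converted to log2.

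The members were chosen, as stated at the opening, with earlier results of these data known, as were the tests and lists. limma 3.58.1 in R 4.3.3 (lmFit, eBayes) was fitted to all 16637 transcripts without a filter, separately in each sex with one mean per strain, and over all arrays for the interaction; Benjamini-Hochberg adjustment ran over all transcripts. The fits were tested on simulated data. Members named are the 5 brightest, the 3 dimmest, the 5 with the smallest and the 5 with the largest SD, and up to 2 called per direction of a contrast (3 with the lowest p for an F-test); FBtr0082626 was added. Alternatives were other normalizations, filters, priors, weights, a replicate block, the methods' test, another threshold, other member lists and leaving out arrays. Python 3.11.15 with numpy 2.4.6, pandas 2.3.3 and matplotlib 3.10.9 did the rest. The labels give replicate letters only. By the methods each strain had 3 crosses whose offspring were sorted by sex, so male and female arrays of a strain may come from the same crosses, which the interaction fit does not model. The number of arrays sets the precision, and signal over background or a scanner ceiling could not be measured.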

Additional observations from a re-analysis of the deposited data

How the results depend on the processing

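Shares below are percentages of members called by limma, and the changes behind them were not traced to a cause, which was not tested. With array weights the shares were 26% (strain F-test), 16% (INV2 minus INV1), 1% (REV minus SIM1), 1.5% (INV minus white-eyed) and 0.5% (REC minus white-eyed) in males, 8%, 1.5%, 3%, 0% and 1.5% in females, with 3% for INV minus REC, and 30% for the interaction. The shares of all transcripts under array weights were 47.1%, 41%, 1.5%, 15.1% and 0.998% in males, 28.6%, 2.53%, 9.86%, 6.77% and 11.7% in females, 9.89% for INV minus REC and 49.6% for the interaction, in the same order. At an adjusted p under 0.05 they were 0.5% for INV2 minus INV1 in males, and in females 8.5% (F-test), 0.5% (INV2 minus INV1), 1.5% (REV minus SIM1), 3% (INV minus REC), 1.5% (INV minus white-eyed) and 2% (REC minus white-eyed), with 2.5% for the interaction; those of all transcripts were 2.14%, then 25%, 1.24%, 9.95%, 8.4%, 11.8% and 11.8%, and 9.47%. An intensity trend gave 3% for the female F-test (9.77% of all transcripts), 0.5% for REV minus SIM1 in females (2.58%) and 0.5% for the interaction (1.34%). The letters could not be shown to pair the arrays: same-letter arrays of different strains had mean correlations of deviations of -0.0258 in males and 0.0211 in females. With the replicate block the shares were 0% for INV minus REC and REC minus white-eyed in females and 0.5% for the interaction. Those of all transcripts were 1.79%, 3.63% and 0.95%. The one-way comparison of the methods gave 0% for INV minus REC and REC minus white-eyed in females, but it called only 0.012% and 0.0962% of all transcripts. The interaction share was 0.5% after scale normalization (1.82% of all transcripts). Other member lists were counted in the main fit, with the shares of all transcripts given above. With the 400 brightest transcripts of the band the female shares were 3.75% (F-test), 0.25%, 0.5%, 1.25% and 1.5% (INV2 minus INV1, REV minus SIM1, INV minus white-eyed, REC minus white-eyed), and 0.25% for the interaction; with the 100 brightest they were 0% for INV minus REC and REC minus white-eyed. A band of 0.25 gave 0.5% for INV2 minus INV1, REV minus SIM1 and INV minus white-eyed in females and for the interaction. A band of 1 gave 2.5% for the female F-test, 0.5% for INV minus white-eyed in females and the interaction, and 0% for REC minus white-eyed. A choice after quantile normalization, which shares 194 members, gave 0.5% for the female F-test. A choice after scale normalization gave 15%, 5%, 1.5%, 3.5% and 5.5% in females (F-test, REV minus SIM1, INV minus REC, INV minus white-eyed, REC minus white-eyed) and 1% for the interaction. It also turned the members' median sex difference to 0.55 in the deposited values, since other transcripts were chosen, and scale normalization of the values moved that of the members to -0.85. When single arrays were left out, the shares lay between 0.5% and 2.5% for the female F-test, 0% and 1.5% for the interaction, 0% and 0.5% for INV minus REC and for REC minus white-eyed in females, and 0% and 1% for REV minus SIM1 in females; the median sex difference lay between -0.09 and -0.08. The median SD within strains then lay between 0.115 and 0.128 in males and between 0.0846 and 0.0917 in females. Signal over background was not measurable, so the limit it sets is unknown.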

Other observations

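Strain profiles of the members were compared between the sexes as a description. For each member the 6 strain means in males were correlated with those in females. The correlation was above 0 in 89 of the 199 members that vary in both sexes, with a median of -0.07, whereas it was above 0 in 53.1% of all transcripts, with a median of 0.06. Over the 86 equally bright transcripts outside the band it was above 0 in 35. With 6 points for each transcript, and with 3 of the 6 male means holding arrays that deviated alike, no direction is read from these values.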
